A study of Mus musculus with 12 samples.

Results

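The D and E cyclins and the kinases they activate were examined in B220-selected bone marrow cells of young mice, with all 24 probe sets of the array that the platform annotation gives to Ccnd1, Ccnd2, Ccnd3, Ccne1, Ccne2, Cdk2, Cdk4 or Cdk6 alone. These 8 genes were chosen by name, out of 18194 genes on the array. For each the brightest probe set on average is the main one, and all 8 passed the filter on low values, as did 23 of the 24 probe sets. The exception was the second Cdk2 probe set, 1447617_at, which stayed below the floor of log2 intensity 4 on every array. The study measured 1 Affymetrix MOE430 2.0 array for each of 12 samples, in 4 groups of 3 labelled biological replicates. The groups were mice with both the Eμ-Myc and the Eµ-TTP-1 transgenes (Myc TTP), mice with Eμ-Myc alone (Myc), mice with Eµ-TTP-1 alone (TTP) and wild-type mice, with both Myc groups labelled precancerous. All were littermates 4 to 6 weeks old on a background that was 94% C57BL/6. The Eμ enhancer of the immunoglobulin heavy chain locus drives a transgene in the B lineage, TTP (tristetraprolin, encoded by Zfp36) promotes decay of mRNAs with AU-rich elements, and B220 beads collect B cells of all marrow stages together with other B220-positive cells.

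The D cyclins bind Cdk4 or Cdk6, the E cyclins bind Cdk2, and these complexes phosphorylate Rb and its relatives, which frees E2F factors to switch on genes of DNA synthesis. D cyclins respond to growth signals outside the cell, and in mice Ccnd3 is required for the expansion of pre-B cells. E cyclins are themselves E2F targets and act at the entry to S phase. Myc is a transcription factor that pairs with Max and binds the E-box CACGTG, and in human cells CDK4 has been reported among its direct targets. The mRNA of cyclin D1 carries AU-rich elements and has been reported as a target of TTP in cultured cells.

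Some arrays stood apart from their labels, which touches every comparison with the Myc label. On the 6 arrays labelled with Eμ-Myc the log2 intensity of Myc was 11.82 to 13.92. It was 12.65 on the array labelled wild type 3 and 13.47 on that labelled TTP 3, against 9.65 to 10.39 on the other 4 arrays without the label. All 9 measured B-lineage markers were above the floor on every array, with a mean log2 level of 12.55 to 13.05 on the 6 Myc-labelled arrays and 12.88 to 13.67 on the 6 others. Markers of other cells moved with the Myc label: the mean of 15 granulocyte markers was 6.21, 7.55 and 11.32 on Myc arrays against 12.08, 12.53 and 11.58 on wild-type arrays, and 11.03, 10.15 and 9.91 on Myc TTP arrays against 12.55, 12.93 and 10.99 on TTP arrays. In the 6 Myc-labelled arrays over the 6 others (both TTP states together), the markers that fell were 8 of 9 of the B lineage, 6 of 7 of monocytes and macrophages, 9 of 10 of erythroid cells, 6 of 6 of plasmacytoid dendritic cells and 6 of 7 of NK cells. Of 3 T-cell markers 2 fell and 1 rose. These are counts of calls, and of all 10287 tested genes 43.2% were called there (limma, adjusted p under 0.05), 1920 higher and 2529 lower. Called results of the members and counts of their pathway lists are given below with and without wild type 3 and TTP 3, termed the 2 discordant arrays. These 2 were picked because their Myc level was like that of the Myc-labelled arrays. The results without them are therefore not a separate check of the differences with the Myc label. Myc 3, with a granulocyte mean near those of wild type, was kept in that setting.

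The promoters of Cdk4 and Ccne1, the members that rose with the Myc label, are shown with that of Cdk6, which fell, because E-boxes and E2F sites are the letters through which Myc and E2F factors are known to act. RefSeq promoter entries of build GRCm38.p6 matched 5 of the 8 members, and those of Ccnd1, Ccnd2 and Ccne2 were not matched. The 250 bases before the start of each gene are printed 5′ to 3′ on its own strand, with each CACGTG in capitals. The Cdk4 stretch is chr10:127063285-127063534 on the plus strand, that of Ccne1 is chr7:38107491-38107740 on the minus strand, and that of Cdk6 is chr5:3343643-3343892 on the plus strand.
Cdk4: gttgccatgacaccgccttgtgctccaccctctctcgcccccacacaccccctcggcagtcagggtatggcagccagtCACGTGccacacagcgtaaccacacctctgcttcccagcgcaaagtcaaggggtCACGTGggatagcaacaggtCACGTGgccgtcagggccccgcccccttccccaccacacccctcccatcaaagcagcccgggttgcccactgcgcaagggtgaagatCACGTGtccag
Ccne1: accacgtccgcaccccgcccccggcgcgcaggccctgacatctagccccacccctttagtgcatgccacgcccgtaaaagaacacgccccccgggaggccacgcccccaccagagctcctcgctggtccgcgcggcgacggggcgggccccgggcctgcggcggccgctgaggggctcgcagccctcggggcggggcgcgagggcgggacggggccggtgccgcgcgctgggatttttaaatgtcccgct
Cdk6: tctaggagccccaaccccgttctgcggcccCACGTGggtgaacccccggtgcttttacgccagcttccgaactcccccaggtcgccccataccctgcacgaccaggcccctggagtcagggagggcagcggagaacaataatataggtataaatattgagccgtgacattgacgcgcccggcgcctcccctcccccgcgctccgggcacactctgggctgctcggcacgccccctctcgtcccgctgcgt

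The Cdk4 stretch holds 4 copies of CACGTG, which begin at positions -172, -118, -98 and -11 from the start. Of 32851 promoter stretches of this length, 6.02% hold at least 1 copy, which reads the same on both strands, and 7 stretches (0.0213%) hold 4 or more. The Cdk6 stretch holds 1 copy, at position -220, and the stretches of Ccne1, Cdk2 and Ccnd3 (which has a pair of annotated starts) hold none. An E2F site, searched on both strands as TTTGGCGC, TTTGCCGC, TTTCGCGC or TTTCCCGC, occurs in 1.86% of all stretches. Among the 5 matched members it was found in that of Cdk2 alone, as GCGGGAAA on the gene's own strand, the reverse complement of the last spelling. These matches are letters in a window, and binding was not measured.

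Averaged over both states of the TTP transgene, Ccne1 and Cdk4 rose and Ccnd2, Ccnd3 and Cdk6 fell on the 6 arrays labelled with Eμ-Myc relative to the 6 arrays without it. Such an average does not show a difference in each state, and the states are given apart below. Ccnd1, Ccne2 and Cdk2 did not pass the test. In this comparison limma called 43.2% of all tested genes (4449 of 10287, adjusted p under 0.05), so that calls were common among all genes and the count of 5 of 8 is no result about the members as a group. Without the 2 discordant arrays the same 5 members were called, against 61.1% of all genes. The comparisons below share arrays and 1 fit over all 4 groups, so they are not independent of each other, and p-values measure the spread between 3 samples a group.

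Ccne1 encodes cyclin E1, which activates Cdk2 at the entry to S phase. Its log2 intensity was 10.26, 10.34 and 10.32 on Myc TTP arrays, 10.55, 10.30 and 9.98 on Myc arrays, 9.68, 9.41 and 9.75 on TTP arrays, and 9.60, 9.45 and 9.79 on wild-type arrays. In this main probe set all 6 Myc-labelled arrays lay above all 6 others, wild type 3 and TTP 3 included, which was so for 1.62% of the genes tested (167, in either direction). Ccne1 rose by 0.68 ± 0.11 log2 units (SE, adjusted p = 0.0169), and it had the 21st smallest p of all genes. It rose by 0.75 ± 0.12 without the 2 discordant arrays (adjusted p = 0.000630). The Myc TTP and Myc groups overlapped, as did TTP and wild type, so the order of the 4 group means is fixed only between these pairs. The other Ccne1 probe set, 1416492_at, rose by 0.58 ± 0.15 (adjusted p = 0.0204 among all probe sets). It did not separate the arrays, since Myc 3 at 9.01 lay below wild type 3 at 9.27 and TTP 1 at 9.09. In Myc over wild type it was 0.49 ± 0.21 higher (limma adjusted p = 0.119 among all probe sets, against 0.0570 for the main set). The main set, 1441910_x_at, carries the suffix that Affymetrix gives to sets with probes that can match other sequences.

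Cdk4 encodes the kinase partner of the D cyclins. It measured 13.24, 12.99 and 12.99 log2 units on Myc TTP arrays, 12.82, 12.79 and 12.46 on Myc arrays, 12.14, 12.16 and 12.55 on TTP arrays, and 11.97, 12.08 and 12.83 on wild-type arrays. Myc TTP was the highest group and overlapped with no other, while Myc, wild type and TTP overlapped, Myc with the others through wild type 3 and TTP 3. Cdk4 rose over both TTP states by 0.59 ± 0.15 (adjusted p = 0.0171), and by 0.79 ± 0.09 without the 2 discordant arrays (adjusted p = 0.000172). All 3 Cdk4 probe sets were called, with rises of 0.59 to 0.90. The main one, 1422441_x_at, carries the same suffix as the main Ccne1 set, for probes that can match other sequences, and the other 2 do not.

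Ccnd2 encodes cyclin D2, and it varied most among the members, over 4.48 log2 units between its lowest and highest array, a range wider than that of 97.0% of the tested genes. It measured 10.46, 9.68 and 9.35 on Myc TTP arrays, 8.01, 9.36 and 10.41 on Myc arrays, 11.87, 12.49 and 10.20 on TTP arrays, and 11.79, 11.86 and 11.04 on wild-type arrays. The Myc-labelled arrays had a median of 9.52 against 11.83 on the others, and they overlapped through TTP 3 alone. Over both TTP states Ccnd2 fell by 2.00 ± 0.46 log2 units (adjusted p = 0.0169), which is 4.00-fold. It fell by 2.46 ± 0.41 without the 2 discordant arrays. All 7 Ccnd2 probe sets were called lower, at -2.12 to -0.93, and the smallest fall was in 1416124_at, the dimmest of them. Its neighbouring groups in the order wild type, TTP, Myc TTP, Myc all overlapped.

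Ccnd3 encodes cyclin D3, the D cyclin tied to pre-B expansion, and its neighbouring groups in the order TTP, wild type, Myc TTP, Myc overlapped. It measured 12.96, 12.74 and 12.51 on Myc TTP arrays, 11.91, 11.67 and 12.60 on Myc arrays, 13.55, 13.23 and 12.54 on TTP arrays, and 13.23, 13.21 and 12.82 on wild-type arrays. The lowest values were those of Myc 1 and Myc 2, and Myc 3 lay among the Myc TTP arrays. Ccnd3 fell by 0.70 ± 0.20 over both TTP states (adjusted p = 0.0208), and fell by 0.91 ± 0.17 without the 2 discordant arrays. It was no longer called (adjusted p = 0.0524 to 0.0537, with differences of -0.67 to -0.59) when wild type 1, wild type 2, TTP 1, Myc 1 or Myc 2 was left out. Of its 3 probe sets 2 were called lower, and the third, 1444323_at, was at -0.59 ± 0.32 (adjusted p = 0.164).

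Cdk6 encodes the other kinase of the D cyclins. It measured 12.28, 11.97 and 11.83 on Myc TTP arrays, 11.54, 11.51 and 11.63 on Myc arrays, 12.27, 12.46 and 11.71 on TTP arrays, and 12.20, 12.11 and 12.05 on wild-type arrays. The Myc arrays lay below all 9 others, and the other 3 groups overlapped. Its difference over both TTP states, -0.34 ± 0.13, was near the threshold (adjusted p = 0.0476), and it was not called in any fit that left out 1 array other than TTP 3 or Myc TTP 1. Without the 2 discordant arrays it was -0.47 ± 0.09 (adjusted p = 0.00200). The bright probe sets 1435338_at and 1455287_at were both lower, whereas 1460291_at, at 3.53 to 5.98 log2 units near the floor, was 0.41 ± 0.36 higher and did not pass (adjusted p = 0.379).

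**Figure D1:**
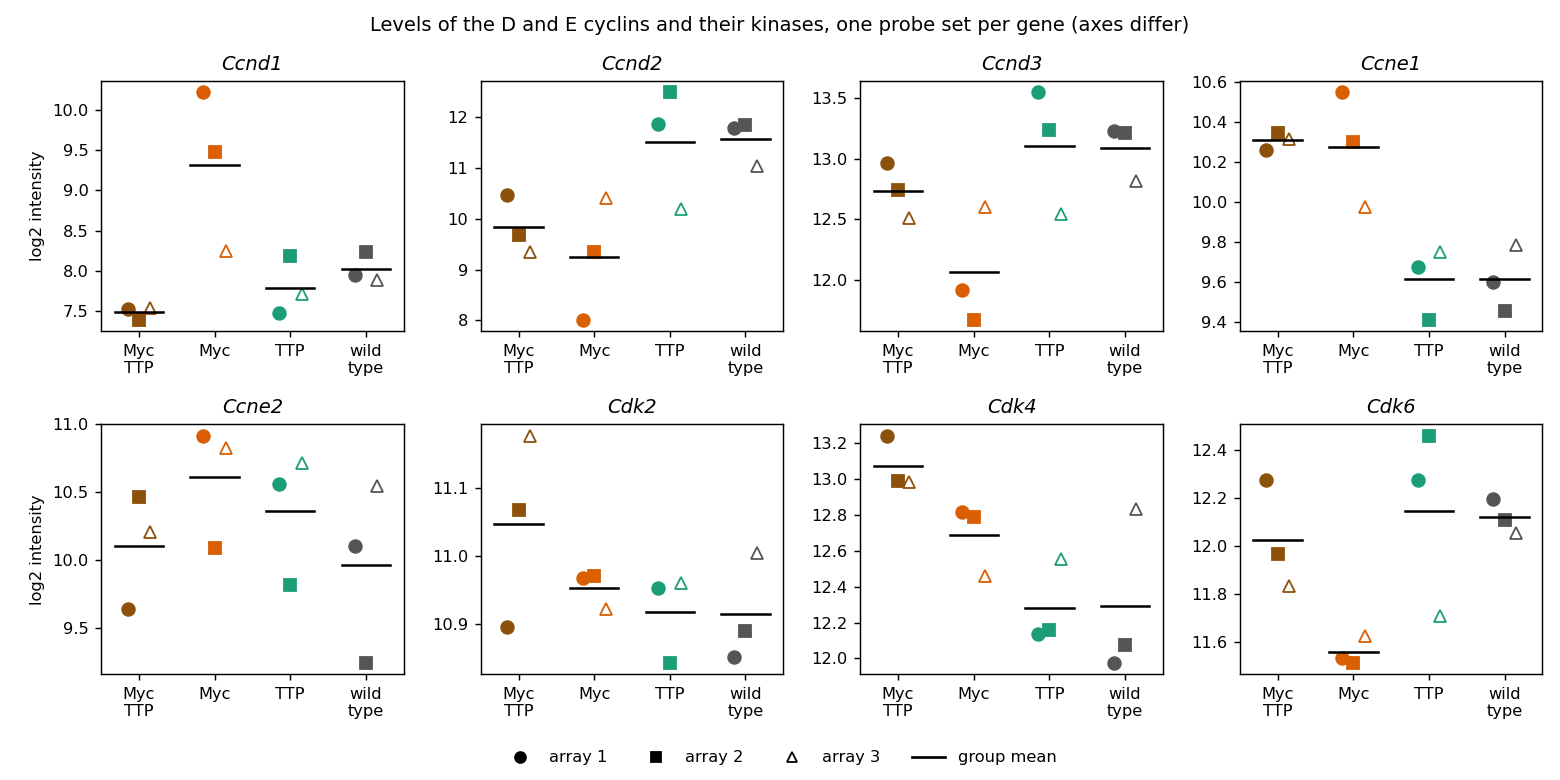
Log2 intensity of the main probe set of each member (y axis, a scale per panel) in the 4 groups (x axis), with a symbol for each array, open for arrays numbered 3, and a bar for the group mean. Ccne1 separates the Myc-labelled arrays from the others, Cdk4 is highest in Myc TTP, and Ccnd2, Ccnd3 and Cdk6 have their lowest mean in Myc.

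The members that did not pass differed in how much they varied. Cdk2, the kinase of the E cyclins, spanned only 0.33 log2 units over the 12 arrays, and 0.865% of the tested genes had a smaller range. It measured 10.90, 11.07 and 11.18 on Myc TTP arrays, 10.97, 10.97 and 10.92 on Myc arrays, 10.95, 10.84 and 10.96 on TTP arrays, and 10.85, 10.89 and 11.00 on wild-type arrays, and its difference over both TTP states was 0.08 ± 0.07 (adjusted p = 0.365). Every group overlapped with its neighbour. Ccne2, which encodes cyclin E2, the second activator of Cdk2, varied widely within groups. It measured 9.64, 10.47 and 10.20 on Myc TTP arrays, 10.92, 10.09 and 10.83 on Myc arrays, 10.56, 9.82 and 10.72 on TTP arrays, and 10.10, 9.24 and 10.55 on wild-type arrays. Its groups all overlapped and its difference was 0.19 ± 0.26 (adjusted p = 0.559).

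Ccnd1 encodes cyclin D1, a D cyclin of many tissues outside the lymphoid lineage. It measured 7.52, 7.39 and 7.54 on Myc TTP arrays, 10.22, 9.48 and 8.25 on Myc arrays, 7.47, 8.19 and 7.71 on TTP arrays, and 7.94, 8.23 and 7.89 on wild-type arrays. The Myc arrays were the highest, although Myc 3 stood only just above wild type 2. The remaining order ran wild type, TTP, Myc TTP, with neighbours that overlapped. Over both TTP states its difference of 0.49 ± 0.28 did not pass (adjusted p = 0.170). It lay between 0.27 and 0.76 when 1 array was left out, and at 0.76, without Myc 3, it was called (adjusted p = 0.0106).

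**Figure D2:**
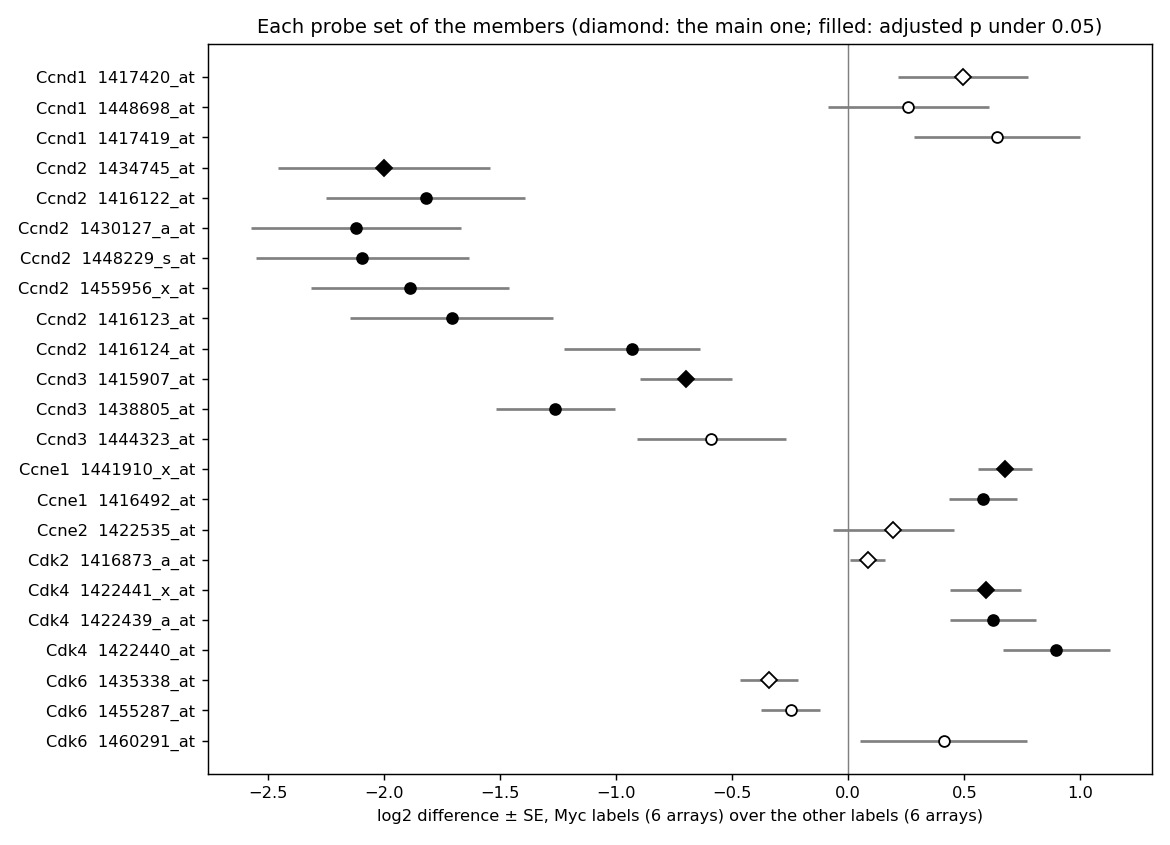
Fitted log2 difference with its SE (x axis) between the 6 arrays labelled with Eμ-Myc and the 6 without, for each of the 23 tested probe sets (y axis, by gene), in a fit over all probe sets. The 7 Ccnd2 sets lie left of 0 and the Ccne1 and Cdk4 sets right of it, while Cdk6 has sets on both sides and its main set, at adjusted p = 0.0555, is not called among all probe sets.

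In the absence of the TTP transgene, Myc over wild type, Ccne1 rose by 0.66 ± 0.16 (adjusted p = 0.0479), Ccnd2 fell by 2.31 ± 0.65 (0.0485) and Ccnd3 fell by 1.03 ± 0.28 (0.0479). These 3 of 8 members stand beside 11.0% of all tested genes called. The smallest adjusted p of any gene in this comparison was 0.0479, so all its calls lie close to the threshold. Ccnd1, 1.29 ± 0.40 higher (adjusted p = 0.0537), and Cdk6, 0.56 ± 0.18 lower (0.0564), fell just short of it. Of 12 fits that left out 1 array, Ccne1, Ccnd2 and Ccnd3 were each called in only 4, and limma adjusted p reached 0.194 for each. Ccnd1 was called without Myc 3 (1.83, adjusted p = 0.00423), without TTP 3 (adjusted p = 0.0344) and with a floor of log2 6 (adjusted p = 0.0476). Cdk6 was called without wild type 3, TTP 2 or TTP 3 (adjusted p = 0.0468, 0.0441 and 0.0113). In the main probe sets, groups did not overlap for 5 members (Ccnd1, Ccnd2, Ccnd3, Ccne1 and Cdk6), against 44.8% of all genes. The median difference of all tested genes was -0.21, and 0.04 after quantile normalization, a shift that left the direction of these 5 as it was, but with no gene called. No member was called either without the filter on low values, without the intensity trend, with a common median or with a replicate block. Without the 2 discordant arrays, Ccne1 rose by 0.75 and Cdk4 by 0.66, and Ccnd2 fell by 2.57, Ccnd3 fell by 1.16 and Cdk6 fell by 0.59, so that 5 of 8 were called against 48.3% of all genes.

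In the presence of the TTP transgene, Myc TTP over TTP, no member and no gene was called (0%), with 3707 of 10287 genes at an unadjusted p under 0.05. Ccne1 was 0.69 ± 0.16 higher and Cdk4 0.79 ± 0.21 higher, each with adjusted p = 0.0607, the smallest of any gene here, and their groups did not overlap, which held for 35.9% of all genes. Ccnd2 was 1.69 ± 0.65 lower (adjusted p = 0.0973). Ccnd3 was at -0.37 ± 0.28 (adjusted p = 0.347) and Cdk6 at -0.12 ± 0.18 (adjusted p = 0.630), and the groups of both overlapped. Neither was called without the 2 discordant arrays, at -0.66 ± 0.24 and -0.34 ± 0.13. Without the 2 discordant arrays, Ccne1 rose by 0.76 ± 0.17, Cdk4 rose by 0.92 ± 0.13 and Ccnd2 fell by 2.35 ± 0.58, 3 of 8 members against 42.9% of all genes. Granulocyte markers also fell with the Myc label, with 14 of 15 called over both TTP states, and so did all 9 markers of pro-B and pre-B cells. These counts stand beside 43.2% of all genes called over both TTP states. The pro-B and pre-B mean was 10.45 to 10.96 on Myc TTP arrays and 9.04 to 11.03 on Myc arrays, against 10.85 to 12.36 on TTP arrays and 11.41 to 12.21 on wild-type arrays. Fewer cells of a type and less RNA per cell cannot be told apart in these samples, and the part of cell composition in the differences of the members was not tested.

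**Figure D3:**
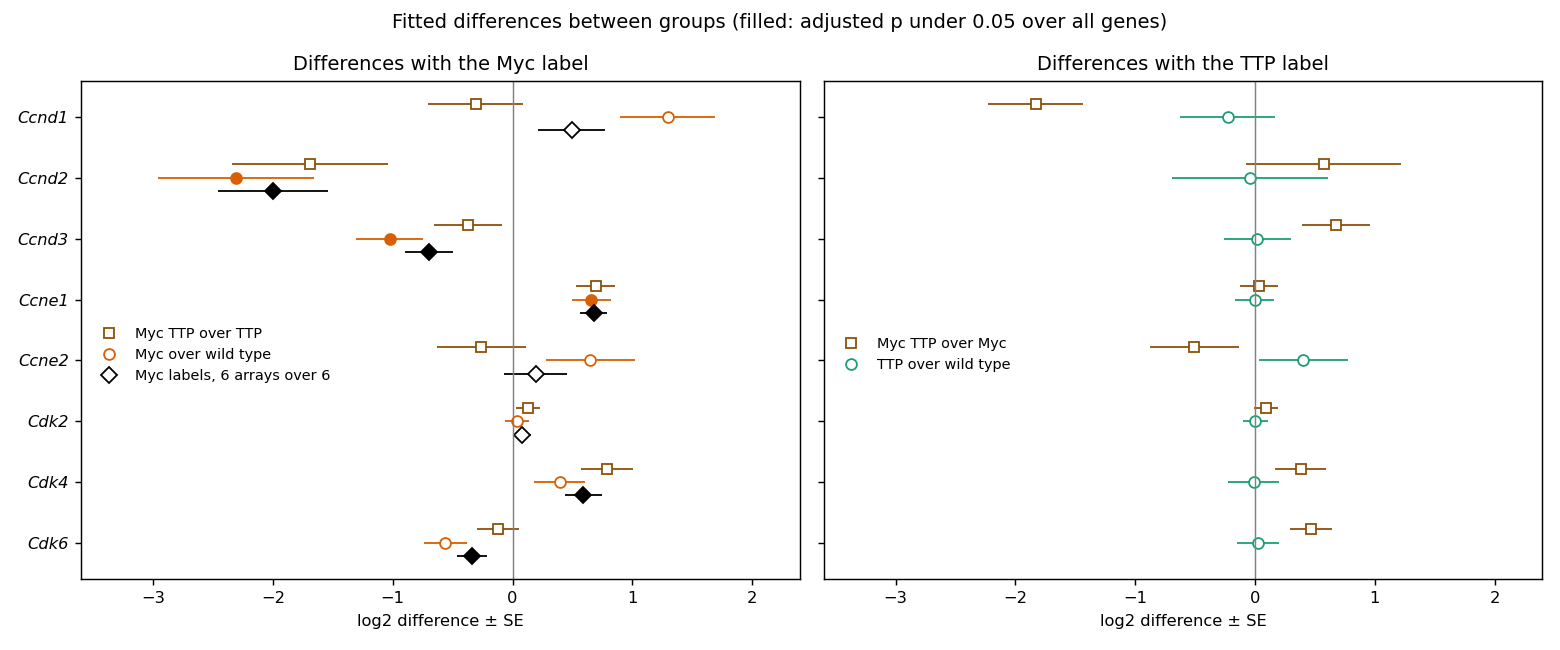
Fitted log2 difference with its SE (x axis) for each member (y axis), with the Myc label on the left and the TTP label on the right. Filled symbols passed adjusted p under 0.05 over all genes. Passing values appear in the left panel alone, for Ccnd2, Ccnd3, Ccne1, Cdk4 and Cdk6.

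The comparisons of the TTP label ask whether the TTP transgene altered these genes, alone or with Myc. Between Myc TTP and Myc, no member and no gene passed (0%, with 1966 genes at an unadjusted p under 0.05). Ccnd1 was nearest, 1.83 ± 0.40 log2 units lower in Myc TTP (adjusted p = 0.172), with the 45th smallest p of 10287 genes, and its 3 probe sets were lower, at -2.07 to -1.74. Its 3 Myc TTP values all lay below its 3 Myc values. Myc 3 was much closer to the Myc TTP arrays than Myc 1 and Myc 2 were, and without Myc 3 the difference in Ccnd1 was -2.37 and was called (adjusted p = 0.0161), against 0.272% of all genes. That was the only call in 12 fits that left out 1 array, in which the difference was -2.37 to -1.38 and adjusted p reached 0.572. Cdk6 (0.47 ± 0.18 higher, adjusted p = 0.217) and Cdk4 (0.38 ± 0.21 higher, adjusted p = 0.340) did not overlap between these groups either, against 33.7% of all genes. Ccnd3 was 0.67 ± 0.28 higher (adjusted p = 0.237). The median of all genes in this comparison was 0.27, and 0.05 after quantile normalization, when Cdk4 was at 0.21, Cdk6 at 0.28 and Ccnd3 at 0.50. With a common median of all arrays they were at 0.12, 0.20 and 0.41, and none of them was called under either scaling. Ccnd2 was at 0.57 ± 0.65 (adjusted p = 0.601), and between -0.05 and 1.15 when 1 array was left out.

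The 2 discordant arrays enter the comparison of Myc TTP with Myc only through the shared estimate of spread, and without them no member was called, against 0.00972% of all genes (1 gene). Without all 4 arrays numbered 3, Ccnd1 fell by 2.39 ± 0.30, and Ccnd2 rose by 1.39 ± 0.40, Ccnd3 by 1.06 ± 0.14 and Cdk6 by 0.60 ± 0.13, which is 4 of 8 members against 14.7% of all genes. The same setting removes Myc 3, the Myc array whose granulocyte mean (11.32) was near those of wild type. Granulocyte markers had a median difference of 2.15 and pro-B and pre-B markers of 1.20 in Myc TTP over Myc, with none called, and their part in these values was not tested.

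Between TTP and wild type, no member and no gene passed (0%, with 149 genes at an unadjusted p under 0.05). The differences of the members lay between -0.23 ± 0.40 for Ccnd1 and 0.40 ± 0.37 for Ccne2, and 0 of 8 had groups that did not overlap, against 4.25% of all genes. The interaction (Myc TTP less Myc, minus TTP less wild type) was not called for any member or gene (0%, with 1351 at an unadjusted p under 0.05). It was -1.60 ± 0.56 for Ccnd1 (adjusted p = 0.358, equal to the smallest of any gene) and -0.91 ± 0.52 for Ccne2 (adjusted p = 0.432). Without the 4 arrays numbered 3 it was called for Ccnd1, at -2.14 ± 0.42 (adjusted p = 0.0387), against 2.28% of all genes. Zfp36 was not higher on arrays with the TTP label, at 7.47, 8.62 and 9.18 log2 units on Myc TTP arrays against 9.28, 9.34 and 10.00 on Myc arrays, and 9.88, 9.89 and 9.78 on TTP arrays against 10.70, 9.80 and 9.84 on wild-type arrays. The probe set may lie outside the transgene, and then it says nothing of the TTP label.

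**Figure D4:**
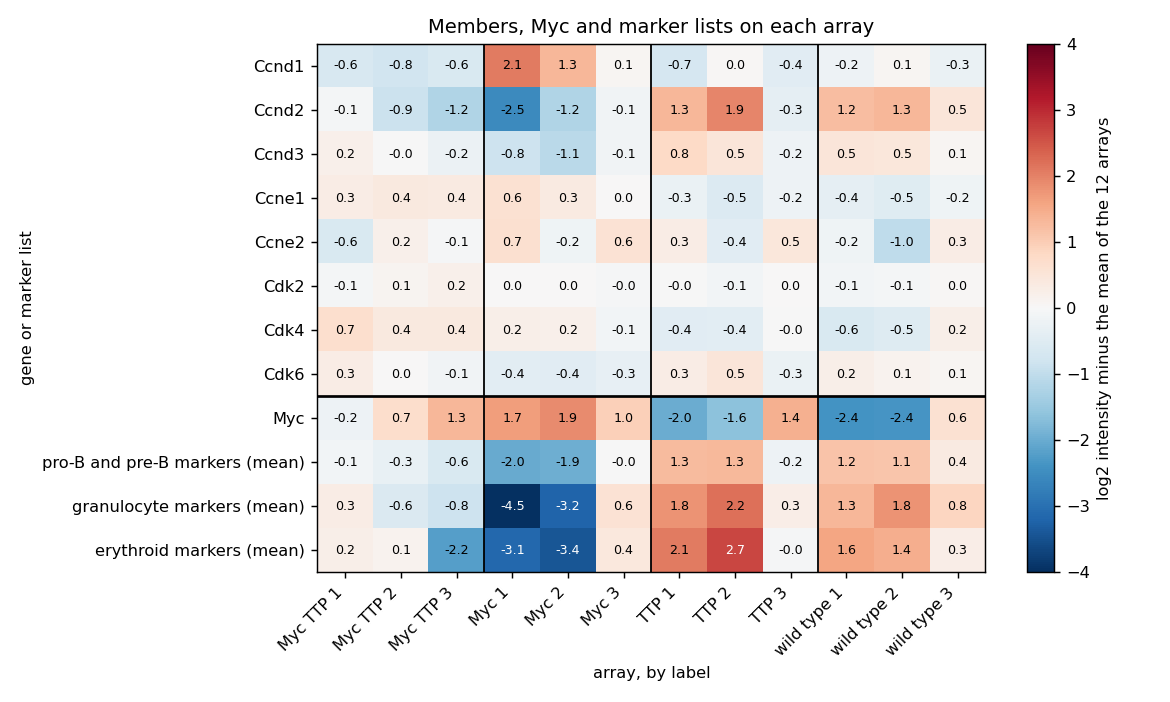
Log2 intensity of each member, of Myc and of the means of 3 marker lists (rows), less the row's mean over the 12 arrays, on each array (columns, by group). The arrays labelled TTP 3 and wild type 3 have Myc above its mean, and Myc 1 and Myc 2 have the lowest granulocyte and pro-B and pre-B markers and the lowest Ccnd3.

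Some of the genes listed as upstream of the D cyclins fell with the Myc label, and their tie to the D cyclins in these samples was not tested. Of 15 tested genes of growth signalling and B-lineage control, 7 fell in Myc over wild type, beside 11.0% of all genes called, and the other 8 did not pass. The median of the 15 was -0.76, against -0.21 for all genes. Il7r, the receptor of the cytokine IL-7 that drives pro-B and pre-B growth, fell by 2.47 ± 0.60. It is also among the pro-B and pre-B markers above, so the 2 lists are not separate for it. Foxo1, a transcription factor of early B cells, fell by 1.76 ± 0.42, the factor Bach2 fell by 1.00 ± 0.24 and Ikzf1, which encodes Ikaros, fell by 0.55 ± 0.13 (adjusted p = 0.0479 each). With both TTP states combined 9 of the 15 genes fell and 0 rose, beside 43.2% of all genes called. Without the 2 discordant arrays 11 of 15 fell and 0 rose in each of these comparisons, beside 48.3% of all genes for Myc over wild type and 61.1% over both TTP states.

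The CDK inhibitors changed in both directions. Of 7, Cdkn2a and Cdkn2b did not pass the filter on low values. Of the 5 tested, Cdkn1c, which encodes p57, was near the floor on most arrays and rose in Myc over wild type, at 6.23, 5.20 and 4.57 log2 units on Myc arrays against 3.98, 3.73 and 4.26 on wild-type arrays (adjusted p = 0.0479). No size is given for it, since only 1 of the 3 wild-type values was above the floor of log2 4. The other 4 did not pass with all 12 arrays, but without the 2 discordant arrays all 4 were called lower, with Cdkn1b at -0.92 ± 0.18 and Cdkn1a at -1.08 ± 0.23. With both TTP states combined Cdkn1c was again called higher. Its Myc TTP arrays, at 4.23, 4.56 and 4.30, overlapped with its TTP arrays, at 4.23, 4.04 and 4.31. In the same comparison Cdkn2d, Cdkn1b and Cdkn1a were called lower, at -0.75 ± 0.20, -0.66 ± 0.18 and -0.74 ± 0.23. These 4 of 5 stand beside 43.2% of all genes, and without the 2 discordant arrays all 5 were called, 1 higher and 4 lower, beside 61.1%. Cdkn1b encodes p27, an inhibitor of cyclin E and Cdk2 complexes, and it measured 11.43 to 11.63 on Myc TTP arrays and 11.01 to 11.74 on Myc arrays, against 11.45 to 12.39 on TTP arrays and 12.01 to 12.34 on wild-type arrays. Named by rule for Myc over wild type was Cdkn1c alone, and the genes given here and below for both TTP states were chosen after their values were seen.

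Pocket proteins and E2F factors moved both ways. In Myc over wild type 0 of 13 were called, and the nearest were Tfdp2, an E2F partner, at -0.82 ± 0.24 (adjusted p = 0.0513), and Rbl2, the pocket protein p130, at -0.93 ± 0.29 (adjusted p = 0.0558). With the TTP states combined Tfdp1, E2f3, E2f6 and E2f1 rose, by 0.33 to 0.55, and Rb1, Rbl2 and Tfdp2 fell, at -0.68 to -0.48. The means of those that rose lay further apart between Myc TTP and TTP than between Myc and wild type, for E2f1 9.34 and 8.79 against 8.82 and 8.70. The means of those that fell lay further apart between Myc and wild type. Rb1, the main substrate of cyclin D complexes, fell by 0.59 ± 0.15 (adjusted p = 0.0171). These 7 of 13 stand beside 43.2% of all genes. Leaving out the 2 discordant arrays, 2 rose and 5 fell in Myc over wild type, beside 48.3%, and 4 rose and 4 fell over both TTP states, beside 61.1%.

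Of the genes that assemble or activate the complexes, later cyclins, E2F targets and proliferation markers, none was called in Myc over wild type with all 12 arrays, among 18 activators and turnover factors (nearest Ambra1 at -0.43 ± 0.16 and Gsk3b at -0.47 ± 0.18), 5 later cyclins and kinases (Ccnb2 at -0.25 ± 0.11, Cdk5 at -0.30 ± 0.18), 23 E2F targets (Rrm2 at -0.44 ± 0.15, Rrm1 at 0.37 ± 0.16) and 10 proliferation markers (Aurkb at 0.30 ± 0.18, Aurka at 0.25 ± 0.18). Over both TTP states, where 43.2% of all genes were called, 4 of the 18 activators rose and 0 fell. They were Cdc37, the chaperone partner that loads kinases such as Cdk4 (0.48 ± 0.12), Cdk7 and Mnat1 of the CDK-activating kinase (0.43 ± 0.13 and 0.36 ± 0.12), and the phosphatase Cdc25a (0.39 ± 0.12). Of the 23 E2F targets 7 rose and 1, Rrm2, fell. Of the later cyclins and kinases Cdk1 alone rose (0.36 ± 0.10), and of the proliferation markers Aurkb, Aurka and Plk1 rose. For Cdc37, Cdk7, Mnat1, Cdc25a, Cdk1, Aurkb, Aurka and Plk1, the means of Myc TTP and TTP lay further apart than those of Myc and wild type. For Plk1 they were 11.64 and 11.08, against 11.26 and 11.16, and for Cdk1 12.61 and 12.05, against 12.29 and 12.12. The medians of the 4 lists were 0.06 to 0.19, against -0.06 for all genes, and the shares of the 4 lists called did not exceed that of all genes. The activators, without the 2 discordant arrays, had 2 higher and 4 lower in Myc over wild type, and 7 higher and 4 lower over both TTP states. The E2F targets then had 7 higher and 1 lower, and 13 higher and 2 lower. The proliferation markers had 1 higher, and 3 higher, with 0 lower in either comparison, and of the later cyclins and kinases 0 and 1 were called higher. These counts stand beside 48.3% and 61.1% of all genes called.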

How the data were processed

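RNA of 12 samples of B220-selected bone marrow cells was measured on Affymetrix MOE430 2.0 arrays. The authors deposited intensity values on a linear scale, 1 per probe set, from 1.73 to 120125. Per the submitters' processing notes they were made with GCRMA (version not given), which corrects background and normalizes between arrays, so that a change in total RNA per cell cannot be seen. Further steps are not stated in the labels. Median intensity was 10.9 to 13.9 per array, and 46.0% to 48.7% of probe sets were above log2 intensity 4. For arrays, their number limits the precision.

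Values were taken to log2 without a pseudocount. Of 45101 probe sets the platform annotation gave 34958 a single symbol, 932 several and 9211 none, and Entrez identifiers led 34754 of the first kind to a current RefSeq symbol. For each of 18194 genes the brightest probe set on average was kept, and 10287 genes above log2 4 on at least 3 of 12 arrays were tested. The test was limma 3.58.1 in R 4.3.3 (lmFit, eBayes with intensity trend, 4 group means, 8 residual degrees of freedom, no covariates), two-sided, with Benjamini-Hochberg adjustment over all genes. All adjusted p-values are from this fit unless the text says they are among all probe sets, and the code was tested on simulated data. Errors of differences are SE and errors of group means SD (n = 3). A direction is compared between settings only for differences that were called or larger than their SE.

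The 8 members, 7 pathway lists and 8 marker lists were chosen with earlier results of these data known. All members are named. From each pathway list the text names the called genes of Myc over wild type (up to 4 by p) or, with none, the 2 with the smallest p, and for each member the 2 genes most correlated with it. Alternatives were 2 other filters, 2 other choices of probe set, 2 other normalizations, no intensity trend, leaving out arrays, and a replicate block. Deviations of same-numbered arrays correlated above 0.1 in all 3 pairs only between TTP and wild type (0.498, 0.664 and 0.821). The labels give no shared litter or day for a number.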

Additional observations from a re-analysis of the deposited data

How the results depend on the processing

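The differences of Ccnd2, Ccne1 and Cdk4 over both TTP states kept their direction and their call under each of the 21 alternatives for single genes, at -2.63 to -1.69, 0.58 to 0.83 and 0.51 to 0.90 log2 units (adjusted p at most 0.0474). In all, 906 of 1002 member differences under an alternative kept their side of the threshold and, where direction was compared, their direction. Of the rest, 59 lost their call, 32 gained one and 5 changed direction. Most of the 906 were not called in the main fit either, so their number does not measure how firm the calls were. In Myc over wild type, Ccnd2, Ccnd3 and Ccne1 were each called under 7 of 21 alternatives. Over both TTP states Ccnd3 was called under 16 and Cdk6 under 8. Direction was compared only for differences that were called or larger than their SE. Smaller ones could change sign, as Ccne1 in Myc TTP over Myc did, from 0.03 to -0.20 with quantile normalization. The 5 counted as changed all came with the probe set of largest SD per gene. It takes the dim Cdk6 set 1460291_at, which gave 0.75 for Myc over wild type, -0.11 for Myc TTP over Myc, -0.68 for the interaction and 0.41 over both TTP states, and the Ccnd3 set 1438805_at, which gave -0.00215 for Myc TTP over Myc.

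Myc over wild type, with 1135 genes and 3 members called, depended on most choices. Both counts were 0 with no filter, the probe set of largest SD, quantile normalization, a common median, no intensity trend, or the replicate block. With all probe sets tested separately they were 1 gene and 0 members. With a floor of log2 6 they were 1442 and 4, with Ccnd1 added. They were 4965 and 5 without the 2 discordant arrays, 5626 and 6 without the 4 arrays numbered 3, and 0 to 3609 and 0 to 5 when 1 array was left out. For Myc TTP over TTP the counts of 0 became 1 gene with no intensity trend, 4412 genes and 3 members without the 2 discordant arrays, 4682 and 4 without the arrays numbered 3, and 0 to 3951 and 0 to 3 without 1 array (3951 without TTP 3, 1907 without wild type 3). For Myc TTP over Myc they became 1 gene with a common median, 1 without the 2 discordant arrays, 1514 genes and 4 members without the arrays numbered 3, and 0 to 28 and 0 to 1 without 1 array (28 and 1, Ccnd1, without Myc 3). For TTP over wild type 1 gene was called with all probe sets separately, without the 2 discordant arrays, and without the arrays numbered 3, and 0 to 1 without 1 array. For the interaction 1 gene was called with all probe sets separately, and 235 genes and 1 member without the arrays numbered 3. Over both TTP states, 4449 genes and 5 members became 2151 to 5806 and 3 to 5 without 1 array. The cause was not tested. The replicate block changed no other call of a member.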

Other observations

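The genes whose log2 values over the 12 arrays were most like those of a member differed by member. For Ccnd2 they were Crebrf (Pearson r = 0.995) and Mdfic (0.992), for Ccnd3 Magi3 (0.994) and Adgrg1 (0.985), for Cdk4 Bend3 (0.994) and Mrpl48 (0.993), and for Cdk6 Glt8d1 (0.978) and Cdk16 (0.973). For Ccne1 they were 1810014B01Rik (0.956) and Slc35g1 (0.944), for Ccne2 Hnrnpa2b1 (0.956) and Armc8 (0.852), for Cdk2 2310022A10Rik (0.953) and Cactin (0.896), and for Ccnd1 S100a10 (0.888) and Plekha3 (0.865). These are the highest of 10287 genes, over 12 arrays that share 4 groups and a first principal component with 73.5% of the variance, and they describe likeness of pattern only.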
